A study of Mus musculus with 2 samples.

Results

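The cadherin and protocadherin genes were the 93 genes of 55450 in the tables whose symbol is Cdh followed by a number, or Pcdh followed by a number or by a, b or g, with antisense transcripts and pseudogenes left out. They comprised 5 type I classical cadherins, 13 type II classical cadherins, 5 other cadherins, 4 delta-1, 5 delta-2 and 3 other non-clustered protocadherins, and the clustered protocadherins (14 *Pcdha*, 22 *Pcdhb* and 22 *Pcdhg* genes). The rule used symbols and no measured value, but it was set with earlier results of these data known. In kept cells 91 of the 93 had at least 1 UMI (a unique molecular identifier, counted once per captured RNA molecule), 40 had 200 or more and 24 had 1000 or more, and *Cdh16* and *Pcdhb1* had none in either library.

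Cadherins are calcium-dependent adhesion proteins of the cell surface. Classical cadherins hold cells together mainly by binding to like molecules on the neighbouring cell and attach to the actin cytoskeleton through catenins, whereas most protocadherins adhere more weakly and carry other cytoplasmic partners. In the developing cortex, type II cadherins and non-clustered protocadherins mark subsets of neurons and glia and take part in axon sorting and synapse formation, and clustered protocadherins give single neurons an identity through the choice of alternative promoters.

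The study compared the cerebral cortex of C57BL/6 mice with and without white matter injury (WMI), the injury that in preterm infants accompanies poor myelination, by droplet single-cell RNA-seq. Per the labels, the right common carotid artery was ligated on postnatal day 7 under 1 h of hypoxia, the mice were 2 weeks old, and on postnatal day 14 the ligated cortex of the WMI group and the ipsilateral cortex of the control group were taken. The paper's own account gives an earlier age and a longer hypoxia, dissociated cells where the labels speak of nuclei, and in places the unligated side as the control, and neither version was assumed. The paper also speaks of replicates within each group. In the data used here each group was 1 library that does not separate replicates, and the labels give no number of mice. No spread between replicates could therefore be measured, and no p-value was computed. Every interval below is a 95% interval that covers counting error only.

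The tables held 66470806 UMIs in 10288 control barcodes and 60568639 UMIs in 8354 WMI barcodes, and 8755 control and 7571 WMI cells were kept, of which 30 shared a barcode across the libraries. The median mitochondrial share was 0.0696% in the control and 0.472% in the WMI barcodes. UMIs of *Xist*, which the inactive X chromosome of females transcribes, or of its antisense *Tsix* were found in 0.263% of control and 64.1% of WMI cells, so that sex and injury cannot be told apart. Cells were clustered without the 93 genes, and 23 named classes with at least 50 cells in each library were compared, with 7381 control and 5652 WMI cells. Classes carry the name of the cell type whose markers they held, with "-like"; 8 excitatory neuron-like clusters without a layer name are given by number (cluster 0, led by *Pcp4*, *Nrgn* and *Ppia*; 5, by *Ccdc3*, *Rorb* and *Exph5*; 6, by *Otof*, *Chst9* and *Dpyd*; 13, by *Dnah14*, *Col6a1* and *Slc26a4*; 15, by *Hs3st4*, *Nr4a2* and *Sulf1*; 18, by *Htr4* and *Cd109*; 20, by *Tcerg1l*, *Cpa6* and *Robo3*; 22, by *Hsd11b1*, *Trpv6* and *Nxph2*). These 8 were named by a looser rule, where no narrower list gave a name. At least 60% of the excitatory markers had to reach 25% of their highest cluster level, in at least 10% of cells. No enrichment over other clusters was required. Cluster 6 met 62.5% of the list, the lowest of the 8 and the same share as microglia-like cells, so its name is uncertain. Cluster 0 was lopsided, with 2360 control and 65 WMI cells, and cluster 6 the other way, with 150 and 697. A level is given in CPM, the gene's UMIs scaled to a class total of 1e6 UMIs in a library, and levels were compared between classes and libraries within a gene, never between genes. Neuronal RNA was present in every class: in microglia-like cells the 8 excitatory markers summed to 1042 CPM in the control and 789 CPM in the WMI library, with none of the 8 at 0. A member's level at or below its own level in microglia-like cells was therefore read as background. This level is not a floor common to all classes, as the same markers summed to 534 and 328 CPM in mature OL-like cells. In neuron classes, which hold neuronal RNA of their own, a level at or below it does not show absence.

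Together the 93 genes gave 1556120 UMIs, which was 1.49% of all UMIs of kept control cells and 1.36% of those of WMI cells. The type II cadherins gave 378606 UMIs, the delta-1 protocadherins 841229, of which *Pcdh9* gave 686474, and the 58 clustered genes 1668 (*Pcdha*), 4907 (*Pcdhb*) and 4432 (*Pcdhg*). Most non-clustered members lie in long genes, for example *Cdh12* (1140269 bases), *Cdh13* (1041189 bases), *Cdh18* (925397 bases), *Pcdh9* (877270 bases) and *Pcdh15* (1550396 bases), and how reads from introns were counted is not given in the sources used here.

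The profiles of the better measured members across the 23 classes were compared between the 2 libraries. Of the 24 members with 1000 or more UMIs, 21 (87.5%) were highest in the same class in both, against 47.0% of the 9772 genes with 1000 or more UMIs. The count was 15 with cells weighted equally, 15 over cells without *Xist* or *Tsix*, 17 at a coarser clustering and 18 with doublets kept. The correlation of a gene's log2 (CPM + 1) values between the libraries over the 23 classes had a median Pearson r of 0.87 over these members and 0.70 over all such genes; the points share clustering, and depth differs between them. The level in the highest class was a median 3.79 times that of the gene's median class in the control and 3.47 times in the WMI library, against 2.15 and 2.21 for all genes. Beyond the minimum of 1000 UMIs, members and all genes were not matched for UMIs. The part of depth in these differences was not tested. Over the 40 members with 200 or more UMIs 24 had the same highest class, where 42.7% of 15406 genes did.

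**Figure D1:**
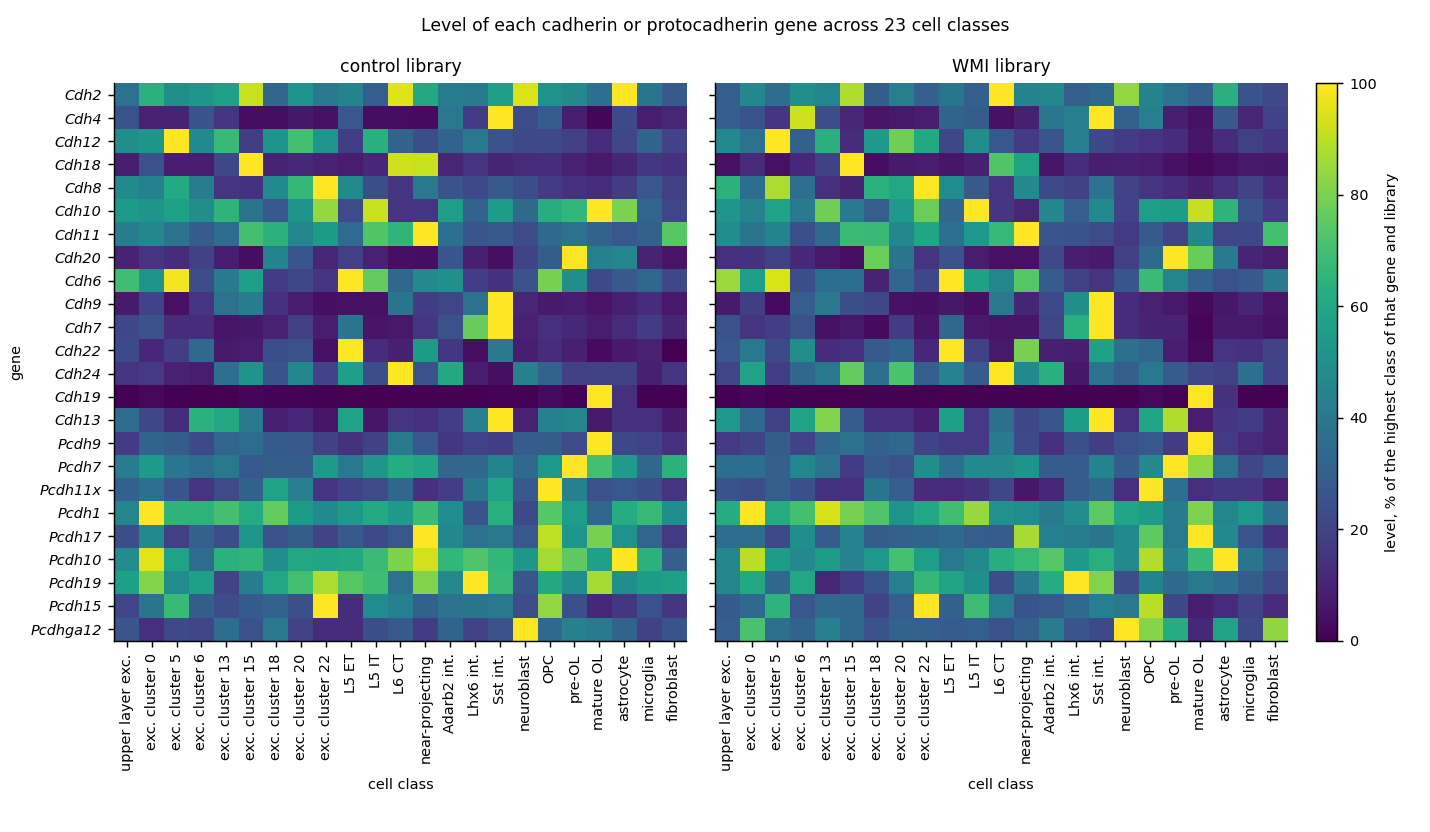
Level of the 24 members with 1000 or more UMIs (rows) in the 23 compared classes (columns), control library on the left and WMI library on the right. Colour gives the level as a percentage of the gene's highest class in that library. Of the 24 rows, 21 have their brightest cell in the same column on both sides. *Cdh19* has 77.3% (control) and 80.2% (WMI) of its level summed over the classes in mature OL-like cells.

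Type II cadherins were described first by a run of neighbours. *Cdh6*, *Cdh9*, *Cdh10*, *Cdh12* and *Cdh18* lie next to each other on chromosome 15 (GRCm38, GENCODE M21): *Cdh6* at 13028701-13173675 on the minus strand, and on the plus strand *Cdh9* at 16728756-16857094, *Cdh10* at 18818947-19014236, *Cdh12* at 20449265-21589533 and *Cdh18* at 22549022-23474418. In the 10.4 Mb from the start of *Cdh6* to the end of *Cdh18* the annotation has 6 protein-coding genes, these 5 and *Acot10*, which lies within *Cdh12*. The *Cdh10*, *Cdh12* and *Cdh18* windows below lie inside the annotated genes, downstream of the gene starts given above. The *Cdh9* window runs across its gene start, so that a part of it also lies inside the gene. The start used in these cells was not determined, so the windows are not read as the promoters behind the profiles. The 250 bases upstream of each RefSeq start (GRCm38.p6) are shown, 5′ to 3′ on the gene's strand, with the E-box letters CANNTG in capitals: *Cdh6* at chr15:13173676-13173925 (minus), *Cdh9* at chr15:16728665-16728914, *Cdh10* at chr15:18820079-18820328, *Cdh12* at chr15:21111202-21111451 and *Cdh18* at chr15:23036213-23036462 (all plus).
Cdh6: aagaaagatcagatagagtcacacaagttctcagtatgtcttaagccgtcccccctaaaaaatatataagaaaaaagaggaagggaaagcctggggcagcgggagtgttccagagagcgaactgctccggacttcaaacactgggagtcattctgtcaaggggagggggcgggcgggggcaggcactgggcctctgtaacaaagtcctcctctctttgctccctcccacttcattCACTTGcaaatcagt
Cdh9: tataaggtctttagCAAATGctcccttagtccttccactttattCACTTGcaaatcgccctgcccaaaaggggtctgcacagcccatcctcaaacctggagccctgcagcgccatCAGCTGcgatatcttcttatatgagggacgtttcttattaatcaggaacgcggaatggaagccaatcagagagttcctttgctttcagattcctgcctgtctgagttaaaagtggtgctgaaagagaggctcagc
Cdh10: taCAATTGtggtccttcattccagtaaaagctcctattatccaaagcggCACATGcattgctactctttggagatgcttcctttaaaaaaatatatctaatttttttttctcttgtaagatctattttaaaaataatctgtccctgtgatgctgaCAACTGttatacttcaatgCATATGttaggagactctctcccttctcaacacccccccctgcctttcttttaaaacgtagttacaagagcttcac
Cdh12: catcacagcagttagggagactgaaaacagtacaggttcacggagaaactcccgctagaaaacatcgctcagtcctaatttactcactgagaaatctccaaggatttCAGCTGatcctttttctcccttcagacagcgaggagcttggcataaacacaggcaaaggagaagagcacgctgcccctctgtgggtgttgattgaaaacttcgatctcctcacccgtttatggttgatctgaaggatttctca
Cdh18: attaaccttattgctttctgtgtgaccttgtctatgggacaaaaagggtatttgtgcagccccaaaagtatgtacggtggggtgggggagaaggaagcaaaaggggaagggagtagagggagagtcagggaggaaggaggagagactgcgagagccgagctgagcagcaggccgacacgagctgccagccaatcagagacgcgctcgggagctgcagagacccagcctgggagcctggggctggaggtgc

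The 5 windows had little in common. Their GC content was 51.2%, 48.0%, 36.8%, 46.8% and 58.0% in that order, against a median of 52.4% over 32851 RefSeq windows of the same length. CANNTG, which reads the same on both strands, was found 1, 3, 4, 1 and 0 times and is in 66.2% of all windows. GGGCGG on either strand was found 2 times in the *Cdh6* window and in none of the other 4 (32.7% of all windows), and TATAAA (12.4%) and TAATTA (4.84%), searched on both strands, were in none of the 5. The longest run shared by any pair was the 15 bases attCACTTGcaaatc of the *Cdh6* and *Cdh9* windows, which no other of the 32851 windows held on either strand (2 windows in all). *Cdh9* and *Cdh18* shared 13 bases, agccaatcagaga, which 31 windows held. Only 22 of the 93 members had an entry in the table of windows. These matches describe letters and not binding.

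Each of the 5 neighbours had its own class of highest level. *Cdh9* was highest in Sst interneuron-like cells, at 706 CPM [659, 755] in the control and 695 [640, 755] in the WMI library. The next class stood well below in both, cluster 15 at 295 CPM in the control and Lhx6 interneuron-like cells at 347 CPM in the WMI library. *Cdh12* was highest in cluster 5, at 1623 CPM [1595, 1652] and 1553 [1516, 1591], followed in both libraries by cluster 20 at 1135 and 1216 CPM. *Cdh18* was highest in cluster 15, at 3242 CPM [3142, 3345] and 3906 [3821, 3993]. In the control it stood nearly as high in layer 6 corticothalamic-like (3009 CPM) and near-projecting-like cells (2972 CPM), whose intervals overlapped each other. In the WMI library these 2 classes were further below cluster 15, at 2838 and 2268 CPM. No other class exceeded 813 CPM, and microglia-like cells were at 527 and 265 CPM. *Cdh6* was highest in layer 5 extratelencephalic-like cells (309 and 326 CPM) and cluster 5 (304 and 308 CPM), which did not differ beyond their counting intervals. Its level in Sst interneuron-like cells, where *Cdh9* peaked, was 43.8 CPM in the control, below the 104 CPM of microglia-like cells. *Cdh10* had 2 peaks of different lineage, in mature OL-like cells (936 CPM [867, 1008] and 1029 [941, 1123]) and in layer 5 intratelencephalic-like cells (857 [816, 901] and 1128 [1082, 1175]). The order of these peaks differed between the libraries, and in the control their intervals overlapped. Its lowest class in both was near-projecting-like cells (144 and 121 CPM), one of the classes in which *Cdh18* was high.

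**Figure D2:**
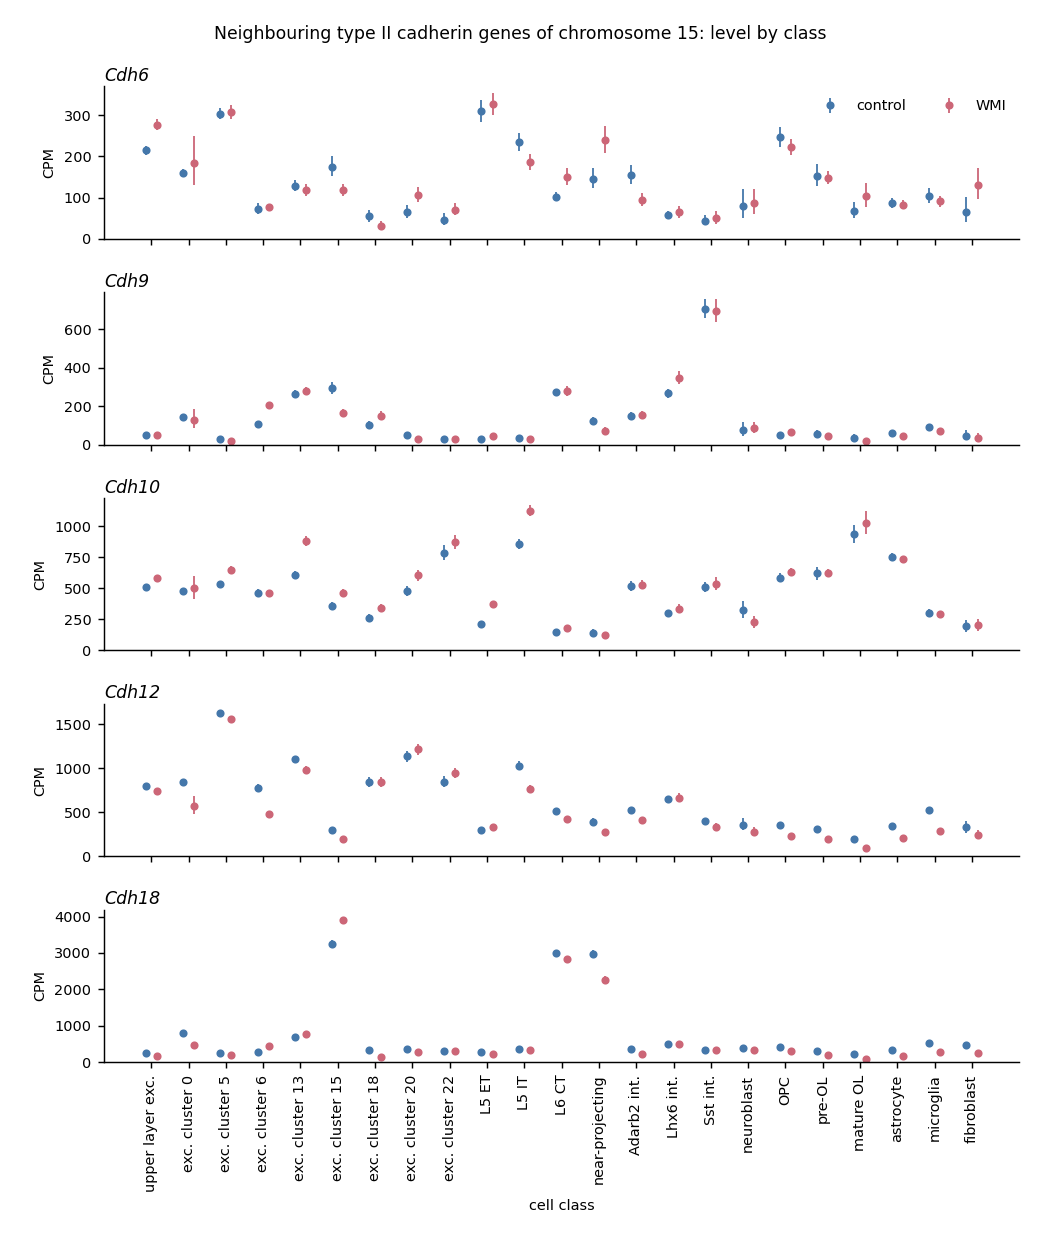
Level in CPM (vertical axes, each from 0) of the 5 neighbouring type II cadherins of chromosome 15 in the 23 classes (horizontal axis), control in blue and WMI in red; bars are 95% Poisson intervals, counting error only. *Cdh9* stands out in Sst interneuron-like cells, *Cdh12* in cluster 5 and *Cdh18* in cluster 15, layer 6 corticothalamic-like and near-projecting-like cells, in both libraries.

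Among the other type II cadherins, *Cdh8* was highest in cluster 22 (1604 CPM [1520, 1692] and 1389 [1324, 1457]). *Cdh11*, known also from mesenchymal cells, was highest in near-projecting-like cells (1007 and 1115 CPM), with fibroblast-like cells next (745 and 781 CPM). *Cdh7* was highest in Sst interneuron-like (273 and 270 CPM) and then Lhx6 interneuron-like cells (210 and 169 CPM). *Cdh7* and *Cdh9* thus shared their highest class. *Cdh22* was highest in layer 5 extratelencephalic-like cells (130 CPM [113, 149] and 89.4 [76.3, 104]). *Cdh24* was highest in layer 6 corticothalamic-like cells (41.3 and 38.8 CPM), on 174 and 58 UMIs. *Cdh20* and *Cdh19* were highest in glia. *Cdh20* was highest in pre-OL-like cells (1538 CPM [1458, 1622] and 1355 [1307, 1404]), with cluster 18, an excitatory class, at 688 and 1048 CPM. *Cdh19* was highest in mature OL-like cells (418 CPM [372, 467] and 342 [292, 398]), which held 77.3% and 80.2% of its level summed over the classes. Astrocyte-like cells followed at 57.6 and 48.6 CPM and OPC-like cells at 11.9 and 7.61 CPM, and neuroblast-like and fibroblast-like cells had no UMI, which at 3 counts allows up to 10.8 and 9.40 CPM in the control. *Cdh5*, the cadherin of endothelial junctions, had 45 control and 56 WMI UMIs, of which 22 and 30 were in fibroblast-like cells.

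Of the type I cadherins, *Cdh2*, which encodes N-cadherin, had UMIs in every class. It was highest in astrocyte-like cells in the control (609 CPM [578, 640]) and in layer 6 corticothalamic-like cells in the WMI library (698 CPM [656, 741]). In the control these classes and neuroblast-like cells (574 CPM) and cluster 15 (558 CPM) did not differ beyond their intervals. In microglia-like cells *Cdh2* was at 237 and 182 CPM. Fibroblast-like cells were below this in both libraries (169 and 155 CPM), which was read as background. In the control further classes were also below the microglia-like level, among them mature OL-like (222 CPM) and upper-layer excitatory-like cells (228 CPM), with overlapping intervals. In the WMI library these were above it (221 and 211 CPM). They were therefore not read as background. *Cdh4*, which encodes R-cadherin, was highest in Sst interneuron-like cells (380 CPM [346, 417] and 338 [299, 380]). *Cdh1*, *Cdh3* and *Cdh15*, which encode E-, P- and M-cadherin, were close to the floor of the data, with 57, 19 and 68 UMIs in both libraries together, and 20 control and 16 WMI UMIs of *Cdh1* were in fibroblast-like cells (62.6 and 41.9 CPM).

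Of the other cadherins, *Cdh13* encodes T-cadherin, which is tethered by a lipid anchor and has no cytoplasmic part. It was highest in Sst interneuron-like cells (1870 CPM [1793, 1949] and 1488 [1406, 1574]). In the control, cluster 6 followed (1196 CPM), and in the WMI library pre-OL-like cells (1312 CPM). *Cdh4*, *Cdh7*, *Cdh9* and *Cdh13* were all highest in Sst interneuron-like cells in both libraries. *Cdh23*, which with *Pcdh15* forms the tip links of inner ear hair cells, had 939 UMIs and was highest in microglia-like cells (128 CPM [110, 149] and 86.5 [74.2, 100]). These held 51.6% and 48.0% of its level summed over classes, and the next class was at 15.1 and 9.58 CPM. *Cdh17* and *Cdh26* had 2 and 8 UMIs in all.

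Of the 4 delta-1 protocadherins, 3 were highest in the oligodendrocyte lineage. *Pcdh9* was highest in mature OL-like cells, at 25326 CPM [24964, 25691] and 25846 [25395, 26302]. The next class, layer 6 corticothalamic-like cells, was at 10280 and 10633 CPM, and microglia-like cells were at 5085 and 3151 CPM. *Pcdh7* was highest in pre-OL-like cells (2437 CPM [2336, 2542] and 2840 [2771, 2911]). *Pcdh11x*, an X-linked gene, was highest in OPC-like cells (905 CPM [860, 951] and 1191 [1146, 1237]). *Pcdh1* had its highest level in cluster 0 (32.1 and 35.8 CPM) but rested there on 8 WMI UMIs, and its profile was the least repeatable of the 24, with r = 0.30 between libraries. *Pcdh15* was highest in cluster 22 (4405 and 4435 CPM), with OPC-like cells next (3694 CPM [3602, 3786] and 3982 [3900, 4066]). *Pcdh20* and *Pcdh12* had 434 and 11 UMIs.

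Of the delta-2 protocadherins, which bind the WAVE actin regulator, *Pcdh10* was highest in astrocyte-like cells (184 and 214 CPM) but close behind in cluster 0 (177 and 192 CPM). *Pcdh17* was highest in near-projecting-like cells in the control (330 CPM [295, 369]) and in mature OL-like cells in the WMI library (417 CPM [361, 478]), with OPC-like cells at 299 and 313 CPM. *Pcdh19*, the X-linked gene of a childhood epilepsy, was highest in Lhx6 interneuron-like cells (94.0 CPM [81.5, 108] and 178 [155, 204]). *Pcdh8*, an activity-induced gene, had 786 UMIs and was highest in Adarb2 interneuron-like cells (8.56 and 26.0 CPM), which in the control stood no higher than microglia-like cells (7.89 CPM). *Pcdh18* had 149 UMIs.

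Along the oligodendrocyte lineage, from OPC-like to pre-OL-like to mature OL-like cells, the members followed different courses. *Pcdh15* was at 3694, 1068 and 491 CPM in the control and 3982, 953 and 373 CPM in the WMI library. *Pcdh11x* was at 905, 395 and 225 CPM and at 1191, 434 and 167 CPM. Both were thus highest in OPC-like cells. In microglia-like cells *Pcdh15* was at 1087 and 901 CPM, close to its pre-OL-like level and above its mature OL-like level, and *Pcdh11x* was at 217 and 191 CPM, close to its mature OL-like level. *Cdh20* was at 455, 1538 and 677 CPM and at 468, 1355 and 1039 CPM. *Pcdh7* was at 1301, 2437 and 1711 CPM and at 1336, 2840 and 2355 CPM. These peaked in pre-OL-like cells. *Cdh13* was at 819, 859 and 132 CPM in the control and at 880, 1312 and 111 CPM in the WMI library, so that it was present up to pre-OL-like cells and below its microglia-like level (255 and 258 CPM) in mature OL-like cells. *Pcdh9* was at 7447, 5906 and 25326 CPM and at 7064, 4448 and 25846 CPM. *Cdh19* was at 11.9, 4.51 and 418 CPM and at 7.61, 2.69 and 342 CPM. These 2 and *Cdh10* were highest in mature OL-like cells. *Pcdh17* was lowest in pre-OL-like cells in both libraries, at 174 and 169 CPM, and *Cdh11* was nearly level in the control (345, 374 and 317 CPM) and lowest in pre-OL-like cells in the WMI library (314, 227 and 515 CPM). The 3 classes held 316, 150 and 89 control cells and 475, 423 and 51 WMI cells.

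**Figure D3:**
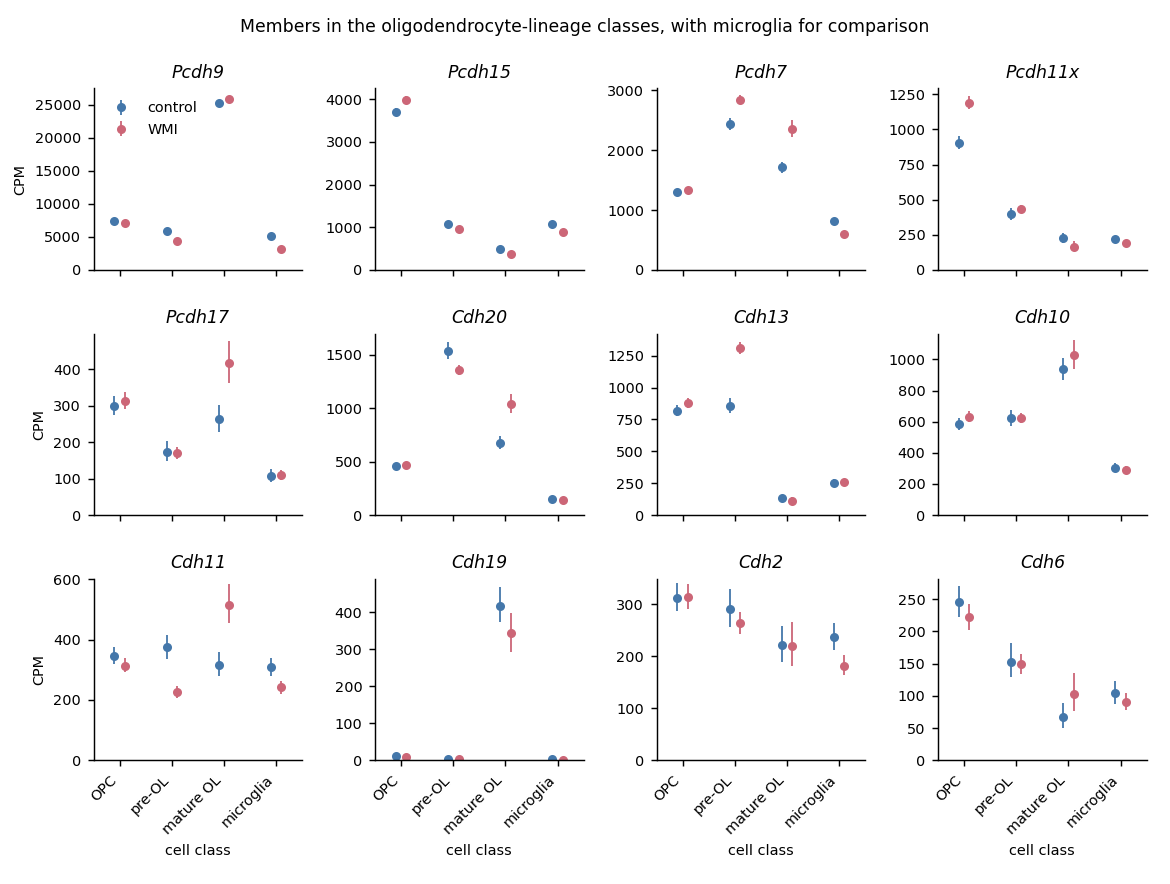
Level in CPM (vertical axes, each from 0) of 12 members in OPC-like, pre-OL-like and mature OL-like cells, with microglia-like cells for comparison, control in blue and WMI in red; bars are 95% Poisson intervals, counting error only. *Pcdh15* and *Pcdh11x* step down from OPC-like cells, *Cdh20* and *Pcdh7* peak in pre-OL-like cells, and *Pcdh9* and *Cdh19* stand out in mature OL-like cells.

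The 58 clustered protocadherin genes lie side by side on chromosome 18. Each *Pcdha* and each *Pcdhg* gene joins its own first exon to 3′ exons shared by the whole cluster, and in the annotation a median 53.4% of the exon length of a *Pcdha* gene (38.0 to 54.9%) and 44.7% of that of a *Pcdhg* gene (27.8 to 66.8%) was shared with another gene of the cluster. *Pcdhb* genes share at most 9.67%. Reads in shared 3′ exons cannot be given to 1 gene, so single *Pcdha* and *Pcdhg* genes are uncertain, and 3 further protein-coding gene models (*Gm42416*, *Gm37013* and *Gm37388*) overlap the region. Sums over each cluster are therefore given. *Pcdha11* is the symbol of 2 gene identifiers, of which ENSMUSG00000102206 held 784 UMIs and the other 38.

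The 3 clusters differed in the classes where they were found. The summed *Pcdhg* level was highest in neuroblast-like (93.8 and 91.8 CPM), fibroblast-like (81.4 and 110 CPM) and OPC-like cells (67.6 and 92.3 CPM), in a different order in each library, then in pre-OL-like (63.1 and 73.9 CPM) and astrocyte-like cells (59.5 and 77.2 CPM), against 33.7 and 32.8 CPM in microglia-like cells. In the upper-layer excitatory-like class it was near the microglia-like level, as the plot of summed levels shows. *Pcdhga12*, with 1259 UMIs the only clustered gene above 1000, was highest in neuroblast-like cells (36.1 and 37.7 CPM). The summed *Pcdha* level was 3.57 and 5.92 CPM in astrocyte-like and 2.71 and 2.06 CPM in mature OL-like cells (2 and 1 UMIs), under the 9.33 and 6.84 CPM of microglia-like cells, and 15.2 and 19.4 CPM in layer 6 corticothalamic-like cells. A low *Pcdha* sum was not general to glia. OPC-like cells were at 21.9 CPM [15.4, 30.2] in the control and 8.06 CPM [4.78, 12.7] in the WMI library. *Pcdhb* sums were less uneven. At this depth the combination of genes in a cell could not be read: of cells with a *Pcdhb* UMI (21.4% of control and 23.7% of WMI cells, 9.30% and 10.6% of microglia-like cells, at median depths of 4215, 5021, 3112.5 and 2873 UMIs), 81.7% and 77.0% had UMIs of a single gene. Where a cell had 2 or more UMIs of a cluster, 2 or more genes were found in 66 of 88 (*Pcdha*), 413 of 459 (*Pcdhb*) and 356 of 415 (*Pcdhg*) such WMI cells.

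**Figure D4:**
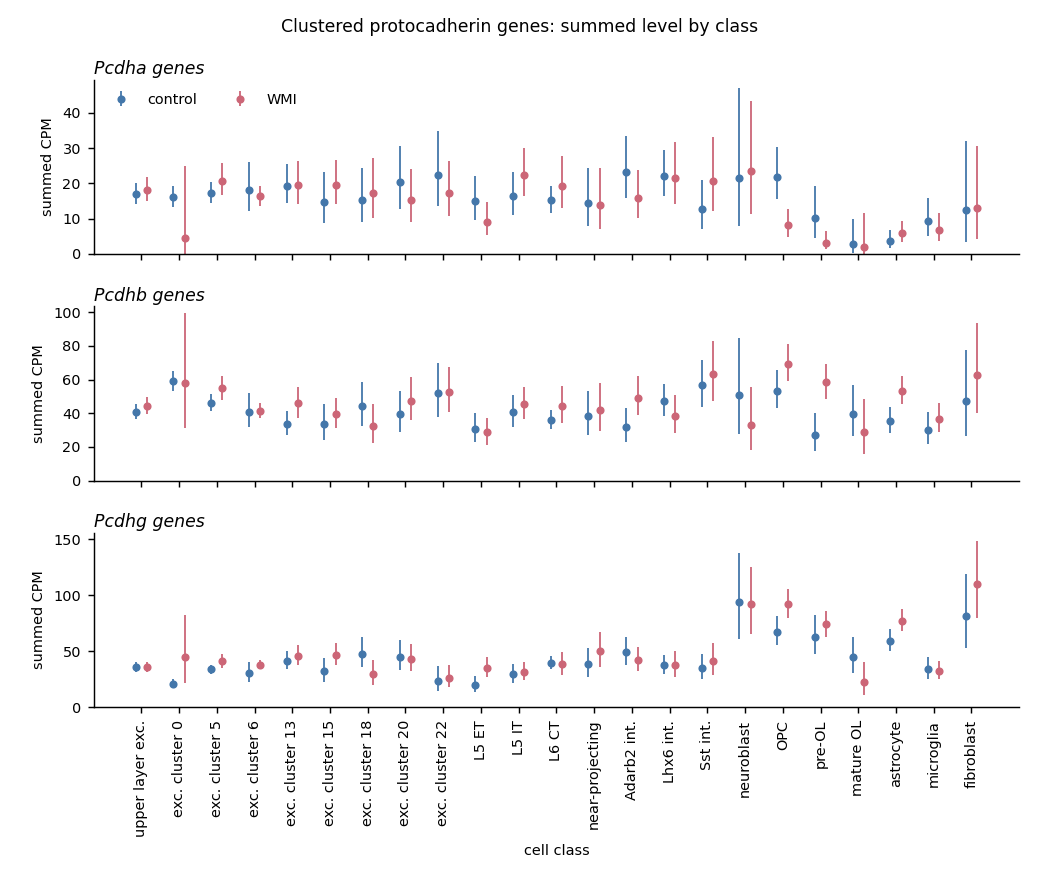
Summed level in CPM (vertical axes, each from 0) of the *Pcdha*, *Pcdhb* and *Pcdhg* genes in the 23 classes, control in blue and WMI in red; bars are 95% Poisson intervals, counting error only. *Pcdhg* is highest in neuroblast-like cells in the control and in fibroblast-like cells in the WMI library, and *Pcdha* is low in astrocyte-like and mature OL-like cells, in both libraries.

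WMI against control was compared in each class for members with 100 or more UMIs there over both libraries, which gave 425 pairs of a member and a class from 27 members. A ratio of 1.5-fold or more was the only criterion. It was reached upwards in 47 pairs (11.1%), where 7.15% of all 114574 pairs of a gene and a class reached it, and downwards in 36 pairs (8.47%), where 5.18% of all pairs did. Of the 47 higher pairs, 12 were in cluster 6, among 24 pairs there, where 10.7% of all genes were higher. Without that class 35 of 401 pairs (8.73%) were higher and 34 (8.48%) lower, against 6.85% and 4.998% of all genes. Neurons and neuroblasts had 42 of 323 pairs higher (13.003%, against 6.59% of all genes there) and 18 lower (5.57%, against 5.18%). Glia and fibroblasts had 5 of 102 pairs higher (4.90%, against 8.93% of all genes there) and 18 lower (17.6%, against 5.18%). Of these 18 lower pairs, 5 were in microglia-like cells. Of the other 13, 11 had a control level at or below that of microglia-like cells, which was read as background. In neurons and neuroblasts 6 of the 18 lower pairs had such a control level, which does not show absence there. The share of all genes' lower pairs at such levels was not counted.

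*Pcdh17*, *Pcdh19* and *Cdh4* had no lower pair. *Pcdh17* was 1.5-fold or more higher in WMI in 8 of 22 classes, with a median log2 ratio of 0.46 over classes and a ratio above 0 in 20. In upper-layer excitatory-like cells it was at 79.9 CPM in the control and 149 CPM in the WMI library (log2 ratio 0.90 [0.75, 1.05]). This ratio stayed past 1.5-fold under all 8 alternatives of processing (0.76 to 0.90). The alternative without clusters with at least 90% of cells from 1 library leaves the ratio of a kept class unchanged by construction. *Pcdh17* also stayed past the fold under 7 alternatives in layer 5 intratelencephalic-like cells, at 73.9 and 127 CPM (0.78 [0.47, 1.09]), and in neuroblast-like cells, at 90.2 and 198 CPM (1.13 [0.47, 1.84]) on 25 and 84 UMIs. In cluster 22 the ratio was 1.00, and 0.48 with doublets kept. *Pcdh19* was higher in 6 of 19 classes, with a median of 0.49 and a ratio above 0 in 16. It was at 44.4 and 110 CPM in Adarb2 interneuron-like cells (1.31 [0.87, 1.77]), 63.2 and 145 CPM in Sst interneuron-like cells (1.19 [0.77, 1.63]) and 94.0 and 178 CPM in Lhx6 interneuron-like cells (0.92 [0.64, 1.21]). In microglia-like cells *Pcdh19* was level, at 51.6 and 52.8 CPM. The gene is X-linked and the libraries differed in *Xist*. In the interneuron classes, cells without *Xist* or *Tsix* held too few cells or *Pcdh19* UMIs for a ratio. In upper-layer excitatory-like cells the *Pcdh19* ratio was 0.61 over all cells and 0.55 over cells without *Xist* or *Tsix*. A WMI cell without these UMIs can still come from a female, so the restricted ratio does not separate sex from injury. *Cdh4* was higher in 4 of 13 classes, with a median of 0.39. In layer 5 intratelencephalic-like cells it was at 14.7 CPM (27 UMIs) in the control and 99.7 CPM (204 UMIs) in the WMI library (2.77 [2.18, 3.40]). Cells with a *Cdh4* UMI were 23 of 144 control and 45 of 139 WMI cells of that class (32.4% in WMI), against 8.14% and 9.86% of microglia-like cells, at median depths of 11709, 12348, 3112.5 and 2873 UMIs. The 10 cells richest in *Cdh4* held 74.0% of the WMI UMIs, so the difference rested on few cells. In Lhx6 interneuron-like cells *Cdh4* was at 68.0 and 145 CPM (1.09 [0.76, 1.42]).

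*Cdh12*, *Cdh18* and *Cdh8* went the other way. Their median log2 ratios over the 23 classes were -0.38, -0.39 and -0.37, with 7, 8 and 4 classes past 1.5-fold lower. In glia and fibroblasts all 18 of their ratios were below 0 and 13 were past the fold; in neurons and neuroblasts 37 of 51 were below 0 and 6 past the fold. *Cdh18* was at 342 and 174 CPM in astrocyte-like cells (-0.98 [-1.13, -0.82]), 527 and 265 CPM in microglia-like cells (-0.99 [-1.16, -0.83]) and 224 and 84.5 CPM in mature OL-like cells (-1.40 [-1.93, -0.90]). *Cdh12* was at 343 and 202 CPM, 524 and 292 CPM, and 198 and 96.9 CPM in the same classes (-0.76, -0.85 and -1.03). These levels were those of microglia-like cells or lower and were read as background. The 8 excitatory neuron markers, none at 0 in any class, were also lower there in WMI, summing to 689 and 492 CPM in astrocyte-like cells, 1042 and 789 CPM in microglia-like cells and 534 and 328 CPM in mature OL-like cells (log2 ratios -0.49, -0.40 and -0.70), and their part in the *Cdh12*, *Cdh18* and *Cdh8* ratios was not tested. Of the 31 lower pairs outside microglia-like cells, 17 had a control level at or below that of microglia-like cells, against 4 WMI levels of the 47 higher pairs. The shares of all genes' lower and higher pairs at such levels were not counted. Where *Cdh18* was highest it was not uniformly lower: in cluster 15 it was at 3242 and 3906 CPM, in layer 6 corticothalamic-like cells at 3009 and 2838 CPM and in near-projecting-like cells at 2972 and 2268 CPM, none past the fold. *Cdh12* at its peak in cluster 5 was at 1623 and 1553 CPM and *Cdh8* at its peak in cluster 22 at 1604 and 1389 CPM.

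**Figure D5:**
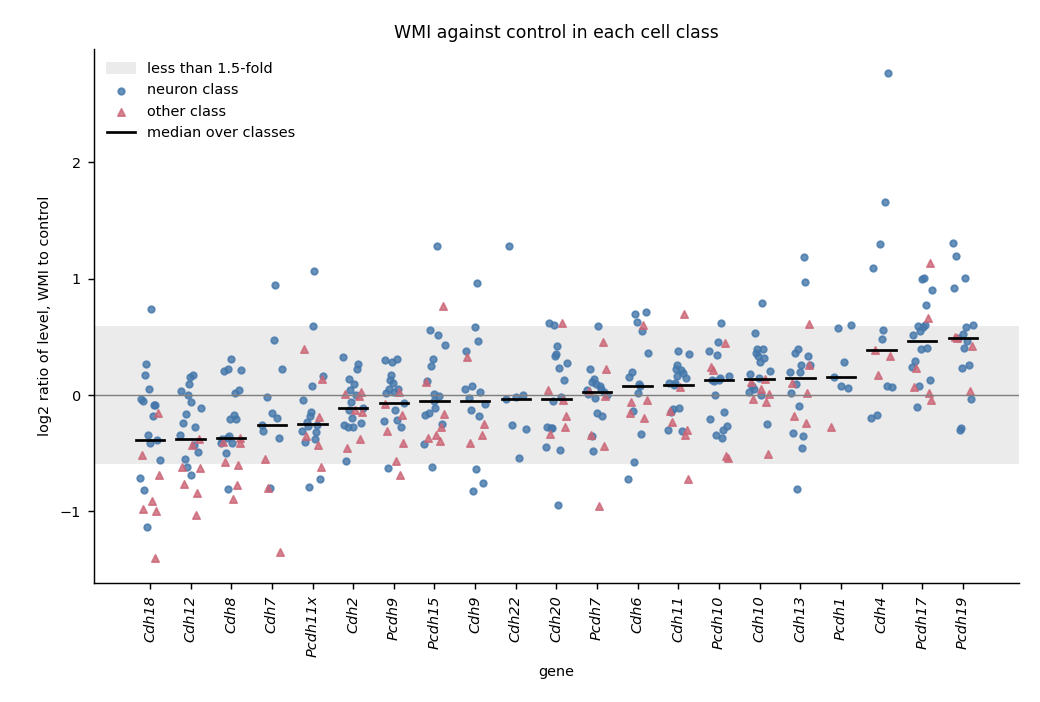
Log2 ratio of level, WMI to control (vertical axis), of the 21 members measured in 7 or more classes (horizontal axis, ordered by median); each point is a class (blue circles neurons, red triangles glia, fibroblasts and neuroblasts), black lines are medians and the grey band is less than 1.5-fold. *Pcdh17* and *Pcdh19* lie at the top with medians of 0.46 and 0.49, and *Cdh18*, *Cdh12* and *Cdh8* at the bottom with medians of -0.39, -0.38 and -0.37.

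Single classes held further large ratios. *Pcdh15* in layer 5 extratelencephalic-like cells was at 568 CPM in the control and 1381 CPM in the WMI library (1.28 [1.17, 1.39]), on 951 and 2564 UMIs, and stayed between 1.02 and 1.42 under 7 alternatives. *Cdh10* in the same class was at 215 and 372 CPM (0.79 [0.60, 0.98]; 0.61 to 0.88). *Cdh13* in layer 5 intratelencephalic-like cells was at 110 and 250 CPM (1.19 [0.95, 1.43]), but 0.44 with doublets kept. In layer 6 corticothalamic-like cells *Cdh13* was at 280 and 551 CPM (0.97 [0.84, 1.10]), but 0.32 at a coarser clustering. *Pcdh8* in upper-layer excitatory-like cells was at 4.30 and 10.8 CPM (1.33 [0.71, 1.97]) on 33 and 71 UMIs. *Cdh6* in near-projecting-like cells was at 146 and 239 CPM (0.72 [0.40, 1.04]). Of the 15 lower pairs in excitatory classes, 5 were in cluster 15, where 17 members were measured and 3.43% of all genes were lower. There *Cdh13* (746 and 427 CPM; -0.81 [-0.94, -0.67]), *Cdh9* (295 and 167 CPM; -0.83), *Cdh8* (238 and 136 CPM; -0.81) and *Pcdh11x* (280 and 163 CPM; -0.79, but -0.58 with cells weighted equally) were past the fold. In cluster 6, 12 of 24 members were higher, where 10.7% of all genes were. Led by *Pcdh8* (3 and 97 UMIs, log2 ratio 2.63), *Cdh24* (5 and 108 UMIs, 2.05), *Cdh4* (99.4 and 313 CPM, 1.66) and *Pcdh11x* (140 and 293 CPM, 1.07), these pairs rested on 150 control cells. The median of all members there was 0.44 as clustered and -0.01 at a coarser clustering.

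In the oligodendrocyte lineage, the cells central to white matter injury, 5 of 52 pairs were higher and 7 lower (9.62% and 13.5%, against 6.00% and 5.05% of all genes). Of the 7 lower pairs, 6 had a control level at or below that of microglia-like cells, a share that was not counted for all genes. In OPC-like cells *Cdh12*, at 357 and 233 CPM (-0.62 [-0.79, -0.45]), was the single member past the fold, and its level was at or below that of microglia-like cells. Its ratio stayed past the fold under 5 of 8 alternatives. It was -0.48 over cells without *Xist* or *Tsix*, -0.54 with cells weighted equally and -0.56 with doublets kept. The OPC-like peak genes *Pcdh15* and *Pcdh11x* were not past the fold. In pre-OL-like cells *Cdh13* was higher, at 859 and 1312 CPM (0.61 [0.50, 0.73]; past the fold under 5 of 8 alternatives, 0.42 with cells weighted equally), and *Cdh11* lower, at 374 and 227 CPM (-0.72 [-0.92, -0.52]; -0.58 with cells weighted equally). In the same cells the 8 mature OL markers summed to 724 CPM in the control and 360 CPM in the WMI library (-1.01 [-1.16, -0.86]), with 1 of the 8 at 0 in each, and their part in these ratios was not tested. In mature OL-like cells *Cdh11* was higher, at 317 and 515 CPM (0.70 [0.44, 0.96]; 0.42 with doublets kept), as were *Cdh20* (677 and 1039 CPM; 0.62 [0.44, 0.80]; 0.46 with doublets kept), *Pcdh17* (263 and 417 CPM; 0.66 [0.37, 0.95]; 0.57 with cells weighted equally) and *Cdh6* (67.8 and 103 CPM; 0.60 [0.01, 1.20]; 0.50 with doublets kept), on 89 control and 51 WMI cells. The 10 cells richest in *Cdh6* held 76.0% of its WMI UMIs. The 7 OPC markers, none at 0, summed to 309 CPM in control and 959 CPM in WMI mature OL-like cells (1.63 [1.40, 1.87]), and their part in these 4 ratios was not tested. In microglia-like cells these markers summed to more in both libraries, 561 and 1266 CPM (1.17 [1.06, 1.29]). They were higher in WMI in astrocyte-like cells also (0.93), so the rise was not particular to mature OL-like cells. *Pcdh9*, *Cdh10* and *Cdh19*, at their highest in mature OL-like cells, were not past the fold there (*Cdh19* at 418 and 342 CPM; -0.29 [-0.57, -0.01]). In the clustered genes, the *Pcdha* sum was lower in OPC-like cells (21.9 and 8.06 CPM, on 37 and 18 UMIs; -1.44 [-2.34, -0.59]) and in pre-OL-like cells (10.1 and 3.14 CPM, on 9 and 7 UMIs; -1.69 [-3.35, -0.10]), while the *Pcdhb* sum was higher in pre-OL-like cells (27.0 and 58.3 CPM, on 24 and 130 UMIs; 1.11 [0.47, 1.80]) and the *Pcdhg* sum in OPC-like cells (0.45 [0.11, 0.79]). The minimum of 100 UMIs was not applied to these sums, and neither *Pcdha* comparison reached it. In microglia-like cells the *Pcdha* sum was 9.33 and 6.84 CPM, so its pre-OL-like levels were near or below background. The *Pcdhb* sum was 30.1 and 36.7 CPM in microglia-like cells, above its control level in pre-OL-like cells. In fibroblast-like cells *Pcdh7* was lower, at 1566 and 807 CPM (-0.96 [-1.17, -0.75]), and at -1.07 to -0.78 under 7 alternatives.

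For 40 genes that act with cadherins, 21 of 594 pairs (3.54%) were 1.5-fold or more higher and 27 (4.55%) lower, against 7.15% and 5.18% of all pairs. Catenins and other cytoplasmic partners (12 genes, 189 pairs) had 4 higher and 11 lower. *Ctnna3*, an alpha-catenin, was higher in astrocyte-like cells (1.40 [1.16, 1.64]) and lower in 5 classes, among them OPC-like (-0.86), mature OL-like (-1.05) and Adarb2 interneuron-like cells (-0.80). *Ctnnb1*, beta-catenin, and *Pkp4*, a catenin of the p120 family, were also higher in astrocyte-like cells (0.88 and 0.94). Large and atypical cadherins (13 genes, 136 pairs) had 12 higher and 7 lower, with *Celsr2*, a planar polarity cadherin, higher in 4 classes, among them cluster 13 (1.17) and OPC-like cells (0.93), and *Fat4* higher in fibroblast-like cells (1.54 [0.94, 2.17]). Regulators of protocadherin choice and signalling (15 genes, 269 pairs) had 5 higher and 9 lower; the cohesin subunit *Smc3* was lower in 4 classes and higher in cluster 0 (0.74 [-0.19, 1.54], on 13 WMI UMIs), and *Wasf1*, a WAVE subunit, was higher in pre-OL-like cells (0.63 [0.41, 0.85]).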

How the data were processed

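The deposited values are raw UMI counts for each gene in each barcode, without normalization, produced by Cell Ranger 6.1.1 per the file headers. The submitters' processing notes name mm9 and Seurat, whereas all 55450 gene identifiers matched GENCODE M21 on GRCm38, whose coordinates are given. A barcode was required to hold at least 1000 UMIs and 500 genes and at most 10% mitochondrial UMIs (748 control and 241 WMI barcodes failed). Predicted doublets, at 0.8% per 1000 barcodes, were then removed (785 and 542). Cells were integrated and clustered with Seurat 5.3.0 in R 4.3.3 (2000 features, 30 dimensions, resolution 0.8), with the 93 members, 40 partner genes, *Xist* and *Tsix* left out of the features, and 31 clusters of 18 to 2425 cells were named from marker lists. UMIs were summed per class and library in Python 3.11.15 with NumPy 2.4.6, pandas 2.3.3 and SciPy 1.17.1 (figures, matplotlib 3.10.9). CPM carries exact Poisson intervals, and log2 ratios carry exact conditional binomial intervals. The latter were checked on counts simulated with Poisson error only. Variation between cells or libraries was not simulated, so the check covers the formula and not its fit to these data. There is 1 library per group, so no test was possible.

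The members and gene lists were chosen with earlier results of these data known. Named were all members with 1000 or more UMIs, the most class-restricted of those with 200 to 999 UMIs (up to 5 per family), and per class up to 4 highest and 4 lowest ratios past 1.5-fold at 100 or more UMIs, with up to 4 partner genes. Members at or near the floor and the clustered sums were added for completeness, chosen after their values were seen. Alternatives changed the clustering resolution, doublets, UMI minimums, *Xist* cells, cell weighting, centring and fold, or left out clusters with at least 90% of cells from 1 library.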

Additional observations from a re-analysis of the deposited data

Results flagged for a closer look

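In 10 of the 27 members with a ratio, 1 class was past 1.5-fold higher in WMI and another past 1.5-fold lower, with both intervals clear of 0. The share of all genes with such opposite ratios was not counted, so the 10 are not read as a trait of the members. None of these differences between classes was tested, since each group is 1 library. In log2 ratios, *Cdh11* was at 0.70 in mature OL-like and -0.72 in pre-OL-like cells, *Cdh13* at 1.19 in layer 5 intratelencephalic-like cells and -0.81 in cluster 15, *Pcdh15* at 1.28 in layer 5 extratelencephalic-like cells and -0.61 in cluster 18, and *Cdh6* at 0.72 in near-projecting-like and -0.72 in Adarb2 interneuron-like cells. Some of these ratios were within 1.5-fold under an alternative: *Pcdh15* in cluster 18 was at -0.12 at resolution 0.4 and -0.15 with doublets kept, *Cdh6* in Adarb2 interneuron-like cells at -0.33 over cells without *Xist* or *Tsix*, *Cdh13* in layer 5 intratelencephalic-like cells at 0.44 and *Cdh11* in mature OL-like cells at 0.42 with doublets kept, and *Cdh11* in pre-OL-like cells at -0.58 with cells weighted equally. The other 6 involved cluster 6, with its 150 control cells. *Cdh18* was at 0.74 there and -1.40 in mature OL-like cells, *Cdh7* at 0.95 and -1.35 in microglia-like cells, *Cdh9* at 0.96 and -0.83 in cluster 15, *Pcdh11x* at 1.07 and -0.79 in cluster 15, and *Pcdh7* at 0.60 and -0.96 in fibroblast-like cells. *Cdh20* was at -0.94 in cluster 6 (-0.40 at resolution 0.4) and 0.62 in Sst interneuron-like cells (0.09 with doublets kept).

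In classes with too few cells to compare, levels on 3 or more UMIs were set against the highest level of the gene in a compared class of either library. The whole counting interval lay above it for *Pcdh1* in control cells, given under the other observations, and for 3 members in WMI cells. *Cdh2* was at 1062 CPM [844, 1320] in the 16 endothelial-like WMI cells (81 UMIs), where the highest compared class was at 698 CPM. *Pcdh18* and *Pcdh12* were at 91.7 and 45.9 CPM in the 15 mural-like WMI cells, on 6 and 3 UMIs.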

How the results depend on the processing

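Of the 73 named ratios, 35 (17 higher, 18 lower) stayed past 1.5-fold under every alternative that gave a value. The alternative without clusters with at least 90% of cells from 1 library cannot change the ratio of a kept class. Reversed were *Pcdh11x* in cluster 6 at resolution 0.4 (-0.0077) and *Cdh6* in cluster 22 with doublets kept (-0.0778); the cause was not tested. The 47 higher pairs became 31 at resolution 0.4, 17 over cells without *Xist* or *Tsix* (186 pairs in 10 classes), 81 and 29 at minimums of 30 and 300 UMIs, and 17 at a fold of 2; the 36 lower pairs became 15 without *Xist* or *Tsix* cells and 4 at a fold of 2. Fewer classes, or a looser or stricter limit, enter these counts by construction. The highest class stayed the same for 26 of 40 members at resolution 0.4 and 11 without *Xist* or *Tsix* cells. The median of cluster 6 (0.44) became -0.0077 at resolution 0.4, 0.20 with doublets kept and 0.21 without *Xist* or *Tsix* cells, and that of cluster 15 (-0.30) became 0.0643 with doublets kept and 0.0898 at a minimum of 30 UMIs. Leaving out cluster 6 was chosen after seeing the data and gave 35 and 34 pairs. No paired analysis was possible because each group has 1 library, and no replicate could be left out. Members with few UMIs are limited by depth.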

Other observations

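Among clusters that were too lopsided to compare, *Pcdh1*, a delta-1 protocadherin, was at 58.1 CPM [49.1, 68.3] (148 UMIs) in cluster 2, led by *Snhg9*, *Mrpl41* and *Rprml*, with 1177 control and 16 WMI cells, against at most 35.8 CPM in a compared class of either library. In upper-layer excitatory-like cells, the 8 microglia markers summed to 83.8 CPM in the control and 235 CPM in the WMI library, and they were higher in WMI in all 23 classes.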
